A study of Mus musculus with 49 samples.

Results

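The 10 genes followed here mark the epithelium of the choroid plexus, the secretory tissue that hangs in the brain's ventricles and lies against the hippocampus without being part of it. They are Ttr, Kl, Sostdc1, Clic6, Slc4a5, Kcnj13, Aqp1, Cldn2, Folr1 and Otx2, and they are 10 of the 38355 genes counted. They were taken by symbol, with earlier results of these data known. RNA of mouse hippocampus had been sequenced in 49 libraries from mice with and without endophilin A proteins, which shape membranes during synaptic vesicle recycling. At postnatal day 13 to 21 there were 7 DKO libraries lacking endophilin A1 and A2, 7 KOWT libraries from littermate controls and 10 WT-DKO libraries from wild type controls. At postnatal day 0 there were 9 TKO libraries lacking endophilin A1, A2 and A3, 8 KOWTKO littermate libraries and 8 WT-TKO wild type libraries.

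The littermate controls were not wild type. Sh3gl2, the gene of endophilin A1, had medians of 39.9 counts per M reads on genes (CPM, with M for mega) in DKO and 39.6 in KOWT against 440.2 in WT-DKO. At birth its medians were 21.6 CPM in TKO and 19.1 in KOWTKO against 196.5 in WT-TKO, and Sh3gl3, the gene of A3, was at or under 0.483 CPM in both TKO and KOWTKO. Sh3gl1, the gene of A2, separated mutants from littermates, at or under 1.32 CPM in DKO and TKO and at 33.7 CPM or more in the other groups. In 6 libraries a targeted gene went against the label: Sh3gl3 was under 20 CPM in DKO replicates 5 and 6 and in KOWT replicates 4, 5 and 6, and Sh3gl1 was at 33.7 CPM in KOWTKO replicate 3. With these 6 libraries left out, the number of members called was the same in every comparison below. The labels name no strain, sex, Cre line or dissection batch, do not tie either of the extraction kits to a sample, and describe all mice as newborn in the growth field, against the age field used here. They do not say whether each library of a group is a different mouse, and p-values therefore refer to the variation among libraries, part of which may be technical. Reads on genes numbered 13.1 to 57.0 M per library, with a median of 22.5 M. Neurod6, a transcription factor of hippocampal pyramidal neurons, was at 248.4 to 697.2 CPM in every library.

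In mm10, the genes lie on chromosomes 18 (Ttr), 5 (Kl, 150952607 to 150993817), 12 (Sostdc1, 36314139 to 36318452), 16 (Clic6, 92485736 to 92541243), 6 (Slc4a5, 83219828 to 83304945, and Aqp1, 55336432 to 55348555), 1 (Kcnj13, 87386363 to 87394729), X (Cldn2, 139800828 to 139811386), 7 (Folr1, 101858331 to 101870788) and 14 (Otx2, 48657677 to 48673819). All are protein-coding. The library kit does not mark strand, and 623 of the 1270 exon bases of Kcnj13 are shared with exons of Gigyf2 on the opposite strand, so Kcnj13 counts are uncertain. Otx2 shares 154 exon bases with Otx2os1 on the opposite strand and 168 with Gm49154 on its own strand.

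The choroid plexus epithelium makes cerebrospinal fluid. Its cells move ions, bicarbonate and water into the ventricle, seal the space between them with tight junctions, and secrete carrier proteins and growth factor antagonists. The plexus of the lateral ventricle runs along the fimbria, so it adjoins the tissue that is dissected. How the tissue was dissected is not given in the labels, and its part in the values below was not tested. In bulk RNA, fewer cells of a type and less RNA per cell cannot be told apart.

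RefSeq promoter windows on GRCm38.p6, reaching from 250 bases before to 50 after a start site, matched 6 members in 9 windows. TATAAA, searched on both strands, is in 13.6% of all 32851 such windows, and at 45 to 16 bases before the start on the gene's own strand in 2.14%. The windows of Kcnj13 (chr1:87394680-87394979, minus strand) and Cldn2 (chrX:139800558-139800857, plus strand) are shown 5′ to 3′ because they hold it there, with TATAAA in capitals, beginning at -29 and -35 from the start. Its part in the levels below was not tested.
Kcnj13: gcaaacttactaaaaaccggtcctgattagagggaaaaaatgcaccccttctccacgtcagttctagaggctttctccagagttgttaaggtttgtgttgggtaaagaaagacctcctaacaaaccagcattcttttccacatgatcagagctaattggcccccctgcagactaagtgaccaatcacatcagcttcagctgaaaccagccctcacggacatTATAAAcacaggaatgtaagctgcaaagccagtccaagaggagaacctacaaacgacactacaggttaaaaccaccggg
Cldn2: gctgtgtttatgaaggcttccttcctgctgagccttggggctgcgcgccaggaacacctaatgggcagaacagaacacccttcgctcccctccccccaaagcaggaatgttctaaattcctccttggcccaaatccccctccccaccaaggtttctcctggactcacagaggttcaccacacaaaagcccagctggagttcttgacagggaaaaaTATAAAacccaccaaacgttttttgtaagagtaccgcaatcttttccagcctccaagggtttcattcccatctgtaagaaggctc
The windows of Kl and Aqp1 do not hold TATAAA, the window of Slc4a5 holds it on the other strand, and 1 of 4 Otx2 windows holds it at -192. TAATCC, the letters bound by OTX2-type homeodomains, is in 7.06% of all windows on either strand and in 1 of the 9 member windows, an Otx2 window, at -211.

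Ttr encodes transthyretin, the carrier of thyroid hormone and retinol-binding protein that the plexus secretes into the cerebrospinal fluid. At postnatal day 13 to 21 it ran from 11.6 CPM through a median of 959.4 to 3466 in DKO, from 2.10 through 10.2 to 3383 in KOWT, and from 1.68 through 11.8 to 5895 in WT-DKO. Every group held both low and high libraries, and the 3 ranges overlapped almost completely. The 24 libraries fell on either side of a 24.2-fold gap: 15 libraries lay between 1.68 and 30.5 CPM, and 9 lay between 738 and 5895. The 9 high libraries were DKO replicates 1, 2, 5 and 7, KOWT replicates 3, 5 and 7, and WT-DKO replicates 1 and 9. They were 4 of 7 DKO, 3 of 7 KOWT and 2 of 10 WT-DKO libraries. Reads on genes were 13.5 to 40.5 M in these 9 and 15.3 to 57.0 M in the other 15, and 2 of the 9 and 3 of the 15 were low in Sh3gl3.

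**Figure D1:**
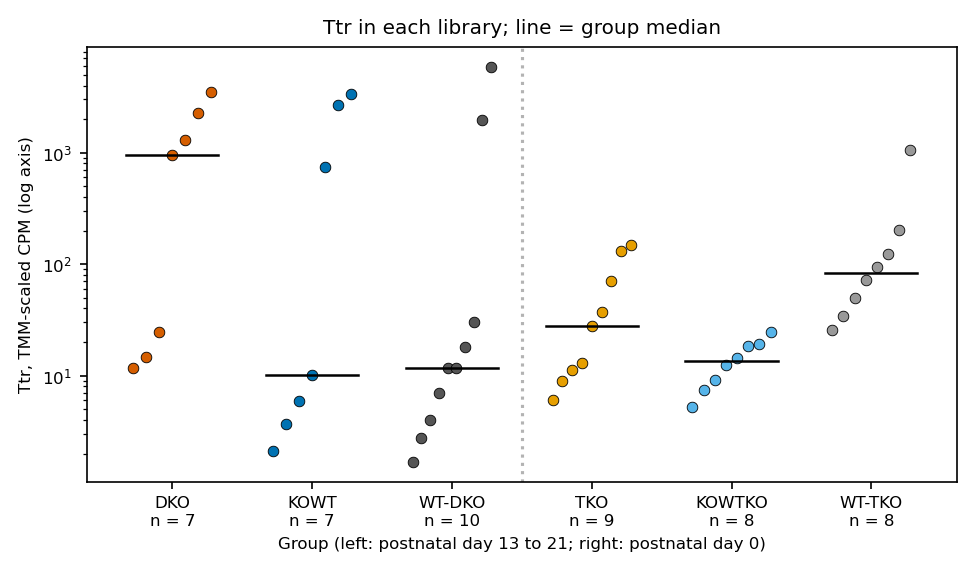
Ttr in each of the 49 libraries by group, as CPM scaled by TMM on a log axis, with the group median as a line. At postnatal day 13 to 21 each group holds libraries under 31 CPM and libraries over 700 CPM, while at day 0 only WT-TKO replicate 7 passes 1000 CPM.

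The other secreted and membrane-bound factors followed the same libraries from different floors. Kl, which encodes klotho, the co-receptor of FGF23, was at 8.61 to 17.9 CPM in the 15 libraries low in Ttr and at 18.2 to 115 CPM in the 9 high ones. Sostdc1, a secreted antagonist of BMP and Wnt signals, was at 3.69 to 6.95 CPM and 6.35 to 36.3 CPM in the same sets. Both genes were well above 0 in libraries that had little Ttr, and Sostdc1 was the member whose sets overlapped. Its 9 highest libraries shared 8 with those of Ttr.

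The ion and water handling genes had few reads in the libraries low in Ttr. Clic6, a chloride intracellular channel protein, was at 0.125 to 2.98 CPM where Ttr was low and at 11.3 to 74.3 CPM where it was high. Slc4a5, the electrogenic sodium bicarbonate cotransporter NBCe2, was at 0.0625 to 0.383 CPM, from 1 to 8 reads, and at 5.74 to 32.6 CPM. Kcnj13, the inward rectifier potassium channel Kir7.1, was at 0.113 to 1.60 CPM and at 2.89 to 15.4 CPM. Aqp1, the water channel of the apical membrane, was at 0.200 to 1.09 CPM and at 4.88 to 43.1 CPM. In each of these 4 genes the lowest library of the high set stood above the highest of the low set.

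Cldn2, a tight-junction claudin that forms a pore for cations and water, was at 0.463 to 1.62 CPM in libraries low in Ttr and at 5.56 to 36.0 CPM in the others. Folr1, the folate receptor through which the plexus moves folate, was at 0.324 to 1.28 CPM and at 5.49 to 46.5 CPM. Otx2, the homeodomain transcription factor needed to form and keep the plexus, was at 0.0625 to 1.32 CPM and at 3.66 to 24.6 CPM. Counting Ttr itself, 9 of the 10 genes had exactly the same 9 libraries at the top, beside 48 of all 16114 genes tested at this age, a share of 0.298%. The sets were read from Ttr, so these ranges are a description and no test was made between them.

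**Figure D2:**
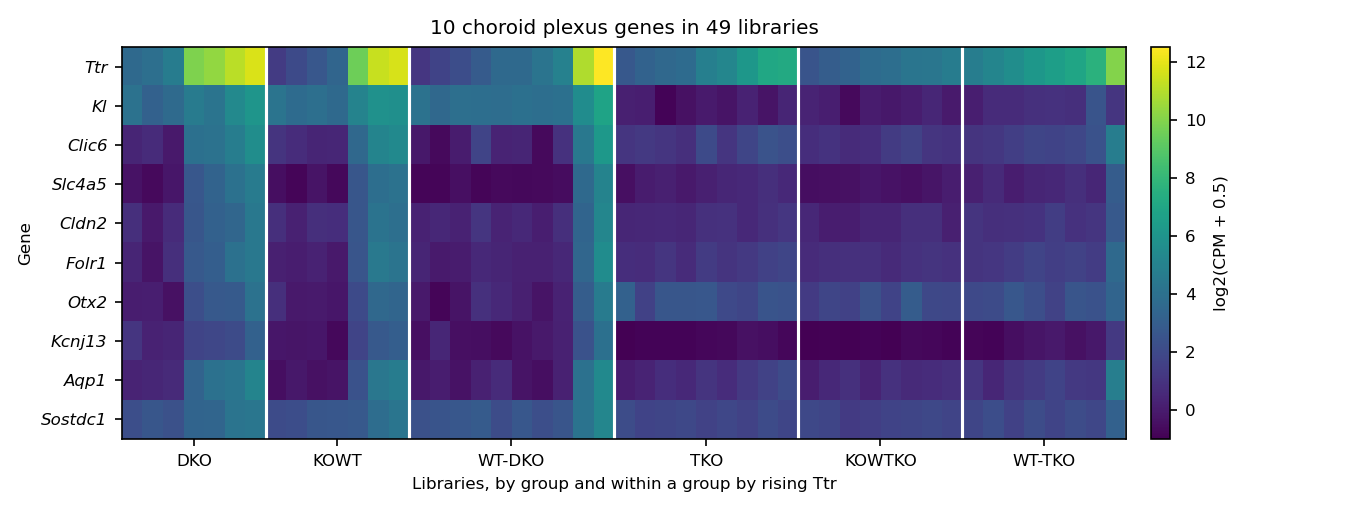
The 10 genes (rows) in 49 libraries (columns, by group and within a group by rising Ttr), coloured by log2(CPM + 0.5). In the older groups on the left 9 of the 10 rows have their brightest cells in the 9 libraries highest in Ttr, Sostdc1 in 8 of them, and in the newborn groups on the right several rows brighten together in WT-TKO replicate 7.

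The spread within groups was among the widest of any gene. After group means were subtracted, Ttr had an SD of 4.04 in log2(CPM + 0.5) between the older libraries, rank 2 of 16114 genes, against a median of 0.18 over all genes. Clic6 (2.304), Slc4a5 (2.21) and Aqp1 (2.14) ranked 7 to 9, and Sostdc1 (0.90, rank 72) and Kl (1.0, rank 59) were the least variable members. At birth Ttr had an SD of 1.44, rank 27 of 15715 genes, and the other members had SDs of 0.32 (Sostdc1) to 0.86 (Aqp1), against a median of 0.18. With WT-TKO replicate 7 left out, the newborn SD of Ttr was 1.24 (rank 34) and those of the other members ran from 0.20 (Sostdc1) to 0.50 (Kl).

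Within the 9 libraries high in Ttr, the ratios of the other genes to Ttr varied less than Ttr. Ttr itself varied 7.99-fold between them, while the ratio to Ttr varied 1.501-fold for Folr1, 1.51-fold for Clic6 and 1.61-fold for Slc4a5. The ratio varied 1.71-fold for Cldn2, 1.72-fold for Otx2, 1.88-fold for Aqp1, 2.01-fold for Sostdc1, 2.36-fold for Kcnj13 and 3.07-fold for Kl. Kl, Kcnj13 and Sostdc1 had the least fixed ratios. Kl was at 8.61 to 17.9 CPM and Sostdc1 at 3.69 to 6.95 CPM in the libraries low in Ttr. Their ratios therefore include a level seen with little Ttr, whose part in the spread of the ratios was not tested. Per kb of exon, levels in WT-DKO replicate 9, the library highest in Ttr, were 4971 CPM per kb for Ttr, 20.4 for Sostdc1, 20.3 for Folr1, 19.0 for Clic6, 16.4 for Aqp1, 12.4 for Kl, 12.1 for Kcnj13, 10.8 for Cldn2, 5.83 for Otx2 and 5.63 for Slc4a5. The place of Kcnj13 in this order is uncertain, since it shares exon bases with Gigyf2.

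Correlation with Ttr was computed within each set, since the older libraries formed separate clusters, on log2(CPM + 0.5) and with 27 relations in the family. It was computed for the members only, so the share of all genes that would pass is not known. In the 9 libraries high in Ttr, Pearson's r ran from 0.87 for Kl to 0.98 for Clic6, Spearman's rho from 0.90 for Kl to 1 for Clic6, and all 9 genes passed an exact two-sided permutation test for both measures after Benjamini-Hochberg adjustment. The weakest, Kl, had an exact permutation p of 0.00252 for r and 0.00203 for rho, with adjusted values of 0.00453 and 0.00365. Without the 2 libraries farthest from the median Ttr, KOWT replicate 3 and WT-DKO replicate 9, r ran from 0.88 to 0.96 and all 9 remained past adjusted p of 0.05. In the 15 libraries low in Ttr, r ran from -0.24 for Kl to 0.46 for Aqp1 and 0 of 9 passed. Reads were few there for most members, from 1 to 8 for Slc4a5 and 3 to 22 for Aqp1. Kl had 179 to 895 and Sostdc1 58 to 244. For members with few reads, the lack of a call does not show that a relation is absent. There the permutation p of Aqp1 was 0.0854 for r and 0.173 for rho (0.37), with adjusted values of 0.128 and 0.259.

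**Figure D3:**
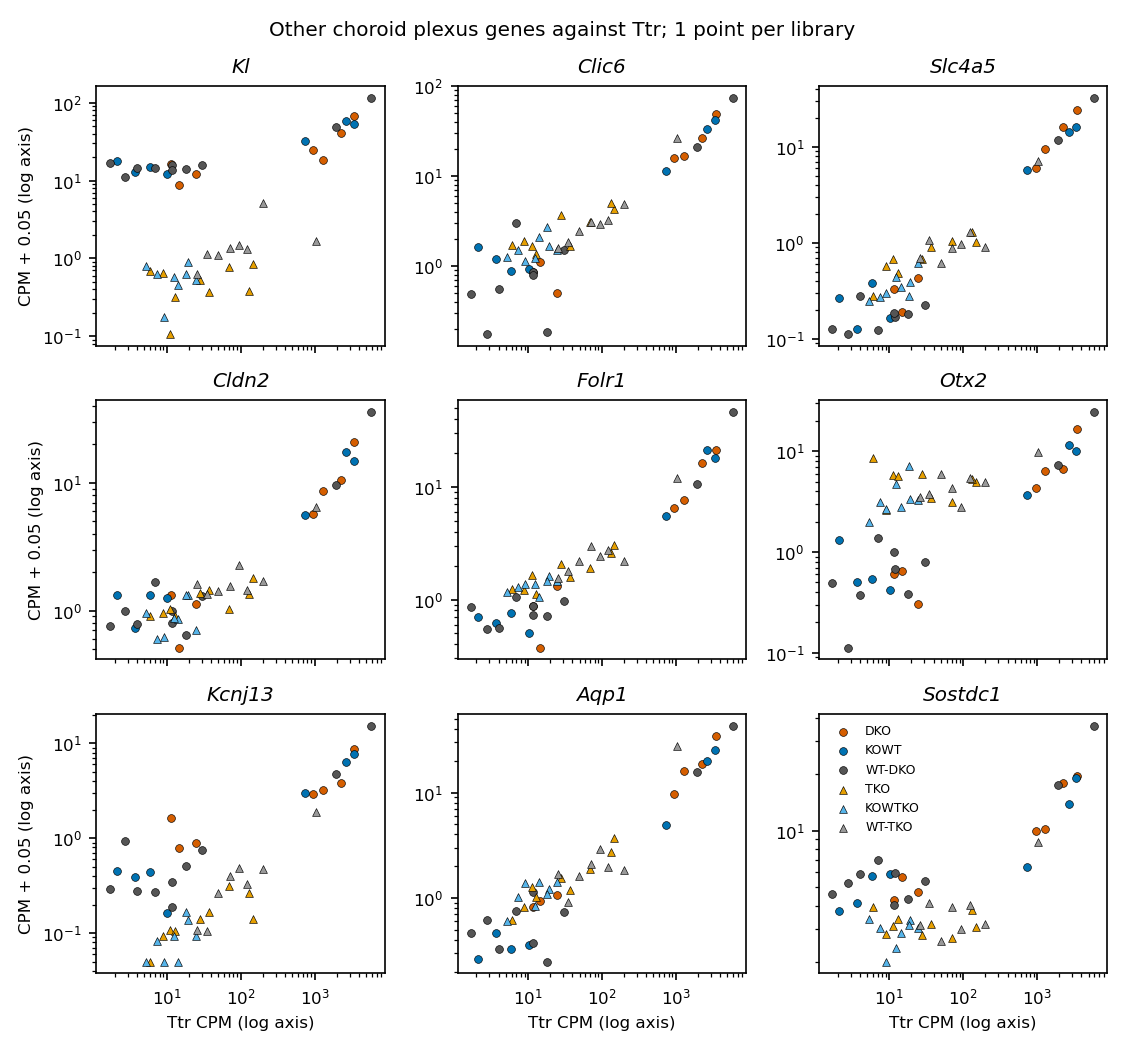
Each other gene against Ttr, 1 point per library, on log axes with 0.05 CPM added to the vertical one (circles are postnatal day 13 to 21, triangles day 0). The 9 older libraries past 700 CPM of Ttr climb along a line in every panel, while Kl, Sostdc1 and Otx2 show separate floors for the 2 ages.

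Genes that mark neighbouring tissues were read in the same libraries. Of 31 tested genes on a wider choroid plexus list, 18 had exactly the same 9 highest libraries as Ttr, as did 1 of 16 ependymal genes and 0 of the meningeal (14), endothelial (10), red blood cell (5), thalamic (8), striatal (8) and hippocampal neuron (12) genes. Summed over the wider list, levels were 345 to 509 CPM in the 15 libraries low in Ttr and 893 to 3860 CPM in the 9 high ones. Summed ependymal genes gave 39.4 to 75.6 and 52.5 to 127 CPM, and summed meningeal genes 338 to 642 and 413 to 811 CPM. Endothelial sums were 390 to 480 and 349 to 442 CPM, red blood cell sums 9.97 to 184 and 19.3 to 110 CPM, thalamic sums 96.5 to 193 and 90.7 to 248 CPM, striatal sums 53.0 to 83.4 and 49.6 to 108 CPM, and hippocampal neuron sums 1580 to 2028 and 1493 to 1951 CPM. Outside the wider choroid plexus list, the ranges of every list overlapped between the sets. Ependymal sums moved with Ttr in part, with medians of 55.003 CPM in the low set and 80.0 CPM in the high set, and 6 of the 9 high libraries passed the highest low one. WT-DKO replicate 9, the library highest in Ttr, was also the older library highest in the ependymal (126.9 CPM), thalamic (248.1 CPM) and striatal (108.5 CPM) sums. The part of these tissues in the members' results was not tested. No list gene was at 0 in all libraries of a group, apart from 1 wider choroid plexus gene in KOWTKO.

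**Figure D4:**
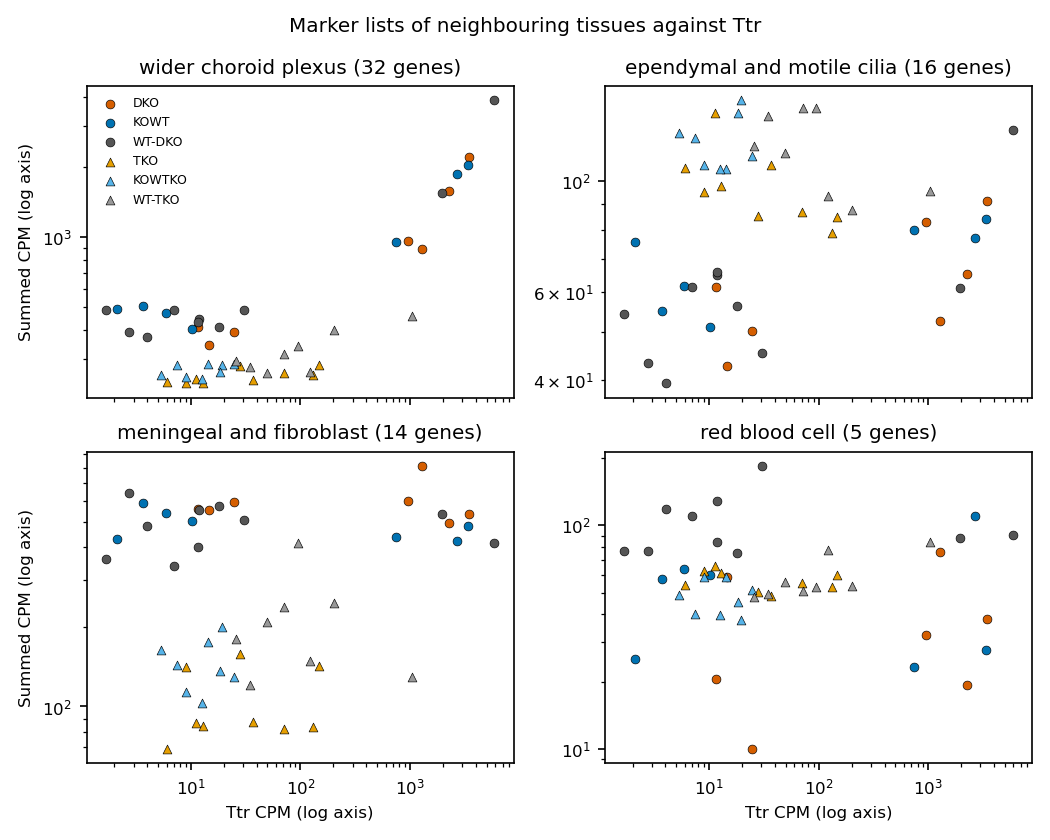
Summed CPM of 4 marker lists against Ttr, 1 point per library, both on log axes. The wider choroid plexus sum climbs with Ttr in the 9 older libraries past 700 CPM, and the ranges of the meningeal, ependymal and red blood cell sums overlap on both sides of the gap.

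No member passed the test between the older groups. The edgeR quasi-likelihood test, with Benjamini-Hochberg adjustment over all genes, called 0 of 10 in DKO versus KOWT, where it called 20.8% of all genes, 0 of 10 in DKO versus WT-DKO (26.1% of all genes) and 0 of 10 in KOWT versus WT-DKO (4.41%). At an unadjusted p under 0.05 the count was also 0 in each comparison, and DESeq2 and limma-voom called 0. The log2 fold change of Ttr was 0.22 ± 1.88 (SE) in DKO versus KOWT, with a 95% interval from -3.46 to 3.91, and 0.51 ± 1.72 in DKO versus WT-DKO, with an interval from -2.86 to 3.88. The narrowest intervals were those of Sostdc1, 0.33 ± 0.55 (-0.74 to 1.41) and 0.10 ± 0.50 (-0.88 to 1.08). At these libraries' spread a change of several fold in Ttr in either direction was not detectable. In KOWT versus WT-DKO the 10 log2 fold changes lay between -0.23 (Sostdc1) and 0.30 (Clic6), with SEs of 0.51 to 1.72. These values moved with single libraries. When WT-DKO replicate 9 was left out, values in KOWT versus WT-DKO ran from 0.32 (Sostdc1) to 2.12 ± 1.69 (Ttr), and those in DKO versus WT-DKO from 0.58 (Kl) to 2.62 ± 1.26 (Slc4a5), with Ttr at 2.35 ± 1.70. edgeR then still called 0 of 10 in both, with a lowest adjusted p of 0.32 and 0.101, but in DKO versus WT-DKO 7 members were at an unadjusted p under 0.05. The share of all genes at that unadjusted p is not given here. With a library left out, edgeR called 3344 to 4517 of all genes in DKO versus WT-DKO. In DKO versus KOWT, Ttr was at -0.38 without DKO replicate 7 and at 0.99 without KOWT replicate 5. With limma-voom, Ttr was at 2.15 in DKO versus KOWT, 3.36 in DKO versus WT-DKO and 1.21 in KOWT versus WT-DKO. DKO versus KOWT and DKO versus WT-DKO share the DKO libraries.

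The authors' deposited table of DKO against wild type lists all 10 genes with a positive log2 fold change, from 0.34 for Ttr to 1.18 for Kcnj13, and Kcnj13 with an adjusted p of 0.0477. Their deposited table of DKO against KOWT lists no member under 0.05, with log2 fold changes from -0.07 for Kl to 0.48 for Slc4a5. These deposited values come from DESeq2, and the share of all genes under 0.05 in the authors' tables is not given here.

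At birth Ttr spanned a narrower range and had no gap as wide. It ran from 6.02 CPM through a median of 27.99 to 148 in TKO, from 5.28 through 13.4 to 24.7 in KOWTKO, and from 25.9 through 83.1 to 1049 in WT-TKO. The lowest WT-TKO library stood above the highest KOWTKO library, and TKO overlapped both. WT-TKO replicate 7, at 1049 CPM, lay 5.22-fold above the next newborn library.

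Of the 9 members tested, 7 fell in KOWTKO relative to WT-TKO, where 10.5% of all genes fell. Ttr had a log2 fold change of -3.90 ± 0.84 (SE; edgeR with Benjamini-Hochberg adjustment, adjusted p = 0.00345). Without WT-TKO replicate 7 it was -2.63 ± 0.66 (adjusted p = 0.00702 by edgeR), and 6 members fell. Ttr and Cldn2 were the 2 members whose KOWTKO libraries all lay below all WT-TKO libraries, beside 0.904% of all genes. The median over the 9 members was -1.56, against -0.01 over all genes, and -0.80 without WT-TKO replicate 7.

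Kl was at 0.127, 0.550 and 0.856 CPM (lowest, median and highest) in KOWTKO, and at 0.584, 1.29 and 5.15 CPM in WT-TKO. The ranges overlapped in part, and reads were few, from 2 to 23 per KOWTKO library and from 10 to 72 per WT-TKO library. The log2 fold change of Kl was -1.56 ± 0.37 (edgeR adjusted p = 0.00503), and -1.56 ± 0.38 without WT-TKO replicate 7. WT-TKO replicate 8, not replicate 7, was the highest in Kl, and without it the log2 fold change was -1.11 ± 0.28 (edgeR adjusted p = 0.00686). That library was also the highest newborn library in the striatal (82.1 CPM, the next at 49.9) and thalamic sums (144.6 CPM, the next at 123.9), and their part in the Kl value was not tested. Sostdc1, the other secreted factor, was at 1.96, 2.99 and 3.33 CPM in KOWTKO and at 2.54, 3.50 and 8.67 CPM in WT-TKO, with a log2 fold change of -0.49 ± 0.18 that did not pass (edgeR adjusted p = 0.054). It was called with DESeq2 (adjusted p = 0.0424), with scaling by library totals (edgeR adjusted p = 0.0203) and without WT-TKO replicate 1, 2, 6 or 8, and was -0.24 ± 0.13 without WT-TKO replicate 7.

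Among the transport genes, Slc4a5 was at 0.196, 0.275 and 0.569 CPM in KOWTKO and at 0.562, 0.893 and 7.11 CPM in WT-TKO. The groups overlapped only in that the highest KOWTKO library passed the lowest WT-TKO library, and the log2 fold change was -2.39 ± 0.49 (edgeR adjusted p = 0.00195), or -1.48 ± 0.29 without WT-TKO replicate 7. Clic6 was at 1.08, 1.45 and 2.64 CPM and at 1.52, 2.94 and 26.3 CPM, with a log2 fold change of -1.84 ± 0.51 (edgeR adjusted p = 0.0138). Without WT-TKO replicate 7 it was -0.80 ± 0.29, still past the threshold (edgeR adjusted p = 0.042), while limma-voom (-1.15, adjusted p = 0.0624) and the replicate block (-1.24, edgeR adjusted p = 0.0728) ended the call. Aqp1 was at 0.554, 1.10 and 1.37 CPM and at 0.867, 1.84 and 27.6 CPM. Its log2 fold change of -2.24 ± 0.62 (edgeR adjusted p = 0.014) rested on WT-TKO replicate 7, without which it was -0.77 ± 0.31 and not called (edgeR adjusted p = 0.0666). It was also not called with DESeq2 (-0.72), limma-voom (-1.22) or the replicate block (-1.42).

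Cldn2 was at 0.548, 0.824 and 1.28 CPM in KOWTKO and at 1.30, 1.54 and 6.43 CPM in WT-TKO. Its log2 fold change was -1.32 ± 0.30 (edgeR adjusted p = 0.00338), and -0.85 ± 0.20 without WT-TKO replicate 7. Folr1 was at 1.002, 1.32 and 1.58 CPM and at 1.52, 2.28 and 11.9 CPM, with a log2 fold change of -1.40 ± 0.34 (edgeR adjusted p = 0.00549), or -0.79 ± 0.20 without that library. Otx2 was at 1.96, 3.17 and 7.16 CPM and at 2.73, 4.57 and 9.69 CPM, and its log2 fold change of -0.48 ± 0.26 did not pass, with a 95% interval from -0.997 to 0.03. It was -0.28 ± 0.25 without WT-TKO replicate 7. Kcnj13 did not pass the filter on low counts at birth. It had 0 to 8 reads in TKO, 0 to 3 in KOWTKO and 1 to 38 in WT-TKO libraries, and no read in 1 TKO and 3 KOWTKO libraries.

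In TKO relative to WT-TKO, which shares the WT-TKO libraries with the comparison above, 4 of 9 members fell, where 12% of all genes fell. Kl was at 0.0575, 0.484 and 0.801 CPM in TKO, with a log2 fold change of -1.81 ± 0.37 (edgeR adjusted p = 0.00122), or -1.81 ± 0.38 without WT-TKO replicate 7 and -1.36 ± 0.28 without WT-TKO replicate 8. The other 3 were Aqp1 (-1.63 ± 0.57), Folr1 (-0.93 ± 0.32) and Cldn2 (-0.89 ± 0.28), with edgeR adjusted p-values of 0.0426, 0.0339 and 0.0222. All 3 calls ended with limma-voom (-0.74, -0.65 and -0.63) and with the replicate block (-0.81, -0.70 and -0.82), and DESeq2 gave Aqp1 at -0.12 (adjusted p = 0.795). The calls of Aqp1 and Folr1 also ended with no filter and with only the 2 groups fitted. Without WT-TKO replicate 7 these were -0.16 ± 0.29, -0.32 ± 0.19 and -0.42 ± 0.19, Kl alone was called, and the median of the 9 went from -1.08 to -0.23. Leaving out TKO replicate 1, 4, 5, 6 or 9 also left 2 calls, and Folr1 and Aqp1 were the ones lost. Ttr in TKO had a log2 fold change of -2.02 ± 0.74 against WT-TKO (edgeR adjusted p = 0.051), and -0.76 ± 0.60 without WT-TKO replicate 7. It was called with DESeq2 (adjusted p = 0.0167), with scaling by library totals (edgeR adjusted p = 0.0437) and without TKO replicate 3 or 8 or WT-TKO replicate 2, 3 or 6.

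Between TKO and KOWTKO, which differ in Sh3gl1, no member passed the test. edgeR called 0 of 9, where it called 5.09% of all genes, and DESeq2 and limma-voom also called 0. At an unadjusted edgeR p under 0.05 there were 2 members, and the share of all genes at that p is not given here. Those 2 were Ttr, at 1.87 ± 0.78 (edgeR adjusted p = 0.169), and Slc4a5, at 1.25 ± 0.50 (edgeR adjusted p = 0.149). Slc4a5 ran from 0.229 through 0.635 to 1.25 CPM in TKO, and overlapped KOWTKO. When only these 2 groups were fitted, Slc4a5 was called. The authors' deposited table of this comparison lists Slc4a5 at 1.12 (adjusted p = 0.00383) and Ttr at 1.32 (adjusted p = 0.0315). Their deposited table of TKO against wild type lists Kl at -1.64 (adjusted p = 7.47e-05) and Cldn2 at -0.84 (adjusted p = 0.0168), with Ttr at -0.54 and Aqp1 at -0.14 not under 0.05. The deposited values are from DESeq2, and edgeR gave Ttr at -2.02 and Aqp1 at -1.63. The DESeq2 test run here gave Aqp1 at -0.12, near the deposited value, but Ttr at -2.02, unlike the deposited value. The cause of that difference was not tested. The share of all genes under 0.05 in the deposited tables is not given here. Kcnj13 is not listed in the authors' deposited tables of the newborn groups.

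**Figure D5:**
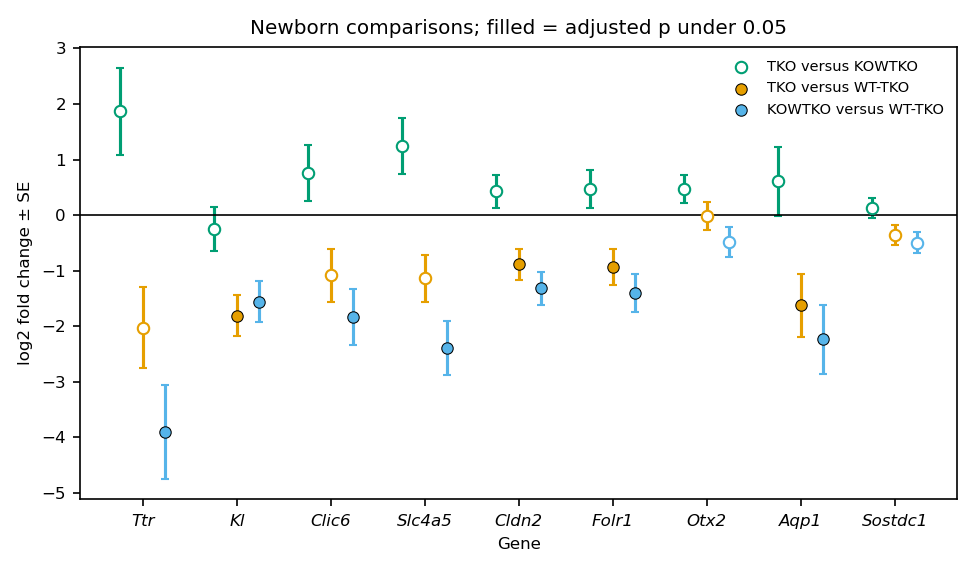
Log2 fold changes with SE bars for the 9 members tested at postnatal day 0 in 3 comparisons, filled where the edgeR adjusted p was under 0.05. KOWTKO against WT-TKO is filled for 7 genes and TKO against WT-TKO for 4, all below 0, and no point of TKO against KOWTKO is filled.

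Markers of other tissues moved with the newborn groups too. On the wider choroid plexus list, 17 of 29 tested genes fell and 0 rose in KOWTKO relative to WT-TKO, and 12 fell and 1 rose in TKO relative to WT-TKO, beside 10.5% and 12% of all genes that fell. Without WT-TKO replicate 7 the counts were 14 fallen and 1 risen of 29 in KOWTKO, and 9 and 1 of 29 in TKO. On the meningeal and fibroblast list 5 of 13 fell in KOWTKO and 11 of 13 in TKO relative to WT-TKO, 0 rose, and without that library the counts were 7 and 13 of 13. Meningeal sums were 68.9 to 158 CPM in TKO, 103 to 199.6 in KOWTKO and 120.1 to 413 in WT-TKO. WT-TKO replicate 7, the highest in Ttr, was not high in them, at 130 CPM. Ependymal genes numbered 0 fallen of 14 in KOWTKO and 2 of 14 in TKO against WT-TKO, and red blood cell genes 0 of 5 in both. The 2 of 14 ependymal genes are near the share of all genes. The part of the meningeal genes in the members' results was not tested.

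Between newborn libraries, 6 members varied with Ttr after group means were subtracted. The share of all genes that would pass was not computed. Kcnj13, one of the 6, had 0 to 38 reads per newborn library and did not pass the filter on low counts at birth. Over the 25 libraries, Pearson's r with Ttr was 0.85 for Clic6, 0.83 for Aqp1, 0.82 for Folr1, 0.81 for Slc4a5, 0.78 for Kcnj13 and 0.71 for Cldn2, with Spearman's rho of 0.81, 0.77, 0.76, 0.76, 0.78 and 0.61. Permutation p-values for r were 1e-05, the smallest that the resamples can give, for all of these but Cldn2 (1.30e-04), and the adjusted values were 4.50e-05 and 2.70e-04. Permutation p-values for rho reached at most 0.00157, again for Cldn2, with an adjusted value of 0.00303. Kl (r = 0.38, rho = 0.41), Otx2 (0.27, 0.20) and Sostdc1 (0.42, 0.12) did not pass, with permutation p-values for r of 0.0635, 0.192 and 0.0393 and adjusted values of 0.101, 0.273 and 0.0664. Without TKO replicate 3 and WT-TKO replicate 7, the libraries farthest from the median Ttr, 5 passed, and Cldn2 was at 0.45 (adjusted permutation p = 0.0571). Within TKO alone 6 of 9 relations passed an exact permutation test of r after adjustment, within WT-TKO 5 and within KOWTKO 0, where Ttr spanned 4.67-fold. For rho the numbers were 3, 3 and 0. Without WT-TKO replicate 7, 3 relations passed within WT-TKO for r (Clic6, Kl and Kcnj13) and 1 for rho (Clic6), and with the adjustment over that family TKO had 5 and 2.

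Proportions at birth could be read in 1 library. In WT-TKO replicate 7, the newborn library high enough in Ttr to compare, Kl stood at 1.53 CPM per 1000 CPM of Ttr, below the 14.1 to 43.4 of the 9 older libraries high in Ttr. Kl was at 1.61 CPM in that library and at 0.0575 to 5.15 CPM in the other newborn libraries, which had far less Ttr. The older ratios of Kl also hold a level seen with little Ttr, 8.61 to 17.9 CPM in the older libraries low in Ttr. Above the older range of ratios were Clic6 (25.1 against 10.8 to 16.3), Folr1 (11.3 against 5.33 to 8.002) and Aqp1 (26.3 against 6.62 to 12.4). Otx2 stood at 9.24 against 2.88 to 4.96, but it was at 1.96 to 8.54 CPM in the other newborn libraries, which had far less Ttr. Slc4a5, Cldn2, Kcnj13 and Sostdc1 lay within the older range of ratios. These values rest on 1 newborn library, and no test was made.

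Kl had the smallest adjusted p between the ages. In the wild type groups it was at 11.2 to 115 CPM at postnatal day 13 to 21 and at 0.584 to 5.15 CPM at birth, without overlap. Its log2 fold change of 4.15 ± 0.52 was called (edgeR adjusted p = 9.24e-10). Sostdc1 was also higher in the older group (1.25 ± 0.38, edgeR adjusted p = 0.00253). Kcnj13 was called as well (2.36 ± 0.83), but it had too few reads at birth to pass the filter there and entered this fit through the older libraries. The filter therefore favours a higher older level of Kcnj13, and its call supports nothing. With it, 3 of 10 members were called higher, where 39.5% of all genes were. Ttr was at 1.95 ± 1.34 and not called (edgeR adjusted p = 0.178). Without WT-TKO replicate 7, Ttr (3.21 ± 1.48), Slc4a5 (2.37 ± 1.11) and Cldn2 (1.77 ± 0.78) were called higher as well, and Sostdc1 was at 1.501 ± 0.389. Without WT-DKO replicate 9 the same 3 genes were at 0.13 ± 1.23, -0.26 ± 0.97 and -0.20 ± 0.63, and limma-voom gave Ttr at -2.07 ± 1.47 and the replicate block gave it at -0.49 ± 1.67, so the direction of Ttr differed between settings. Without WT-DKO replicate 9, the library highest in Ttr, Kl was at 3.53 ± 0.42 and Sostdc1 at 0.71 ± 0.31, Kcnj13 was no longer called (0.90 ± 0.75) and Otx2 was called lower in the older group (-1.94 ± 0.66, edgeR adjusted p = 0.00699). With all libraries kept, Kcnj13 also lost its call with limma-voom (1.01) and the replicate block (1.27), and Otx2 was called lower with limma-voom (-2.37, adjusted p = 0.0021). Otx2 was at 0.0625 to 1.32 CPM in the 15 older libraries low in Ttr and at 1.96 to 9.69 CPM in every newborn library.

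Whether the differences between groups themselves differed with age was tested in a fit of all 49 libraries, as 1 log2 fold change minus the other. The paired differences are not the same genotype contrast at each age. KOWTKO and TKO lack Sh3gl3 and most KOWT and DKO libraries do not, so age and the loss of endophilin A3 cannot be told apart. For DKO minus KOWT against TKO minus KOWTKO, edgeR called 0 of 10 members, with 0 at an unadjusted p under 0.05, where it called 8.9% of all genes, and DESeq2 and limma-voom called 0. For KOWT minus WT-DKO against KOWTKO minus WT-TKO edgeR called 0 of 10, where it called 11.4% of all genes. Of the 10 members, 2 were at an unadjusted p under 0.05. The share of all genes at that p is not given here for either difference. The largest of these, Ttr, was 4.19 ± 1.95 with a 95% interval from 0.36 to 8.02 (edgeR adjusted p = 0.155). Without WT-DKO replicate 9 the count was 7, Kcnj13 among them, and Ttr was at 6.002 ± 1.93 (edgeR adjusted p = 0.0347). With a library left out, edgeR called 1552 to 2512 of all genes, against 1915 with all kept. DESeq2 and the replicate block each called 1, Kcnj13, which passed the filter through the older libraries alone.

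The genes most like the members were sought by correlating each gene with the members' mean log2(CPM + 0.5), after subtracting group means, among genes with a mean of at least 1 CPM. Over the 24 older libraries the 10 closest of 14427 genes were Prr32 (r = 0.99), Mfrp (0.99), Tmem72 (0.99), Ecrg4 (0.99), Kcne2 (0.98), Col8a2 (0.98), F5 (0.98), Enpp2 (0.98), Slc2a12 (0.97) and Abca4 (0.97). Kcne2 is a potassium channel subunit of the plexus, Enpp2 makes the secreted enzyme autotaxin and F5 is coagulation factor V. These values follow the split into separate sets of libraries, and 24 of the 28 wider choroid plexus genes ranked were among the closest 100. Over the 25 newborn libraries the closest of 14162 genes were Wfikkn2 (0.93) and Kcne2 (0.90), followed by Nqo1 (0.81), Ppp1r8 (0.80), Sec13 (0.77), Ace (0.76), Hnrnpab (0.76), Prps2 (0.76), Rtcb (0.76) and Ptk2 (0.76). There 8 of 23 wider choroid plexus genes were among the closest 100.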

How the data were processed

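The deposited table gives whole read counts per gene for 49 libraries, made by the authors with CASAVA 1.8.2 and STAR 2.3.0e on mm10, per the submitters' processing notes. Which program counted reads, and on which annotation, is not given in the sources used here. Libraries were made with the TruSeq RNA v2 kit, which does not mark strand, per the labels' protocols. The authors' deposited DESeq2 tables hold log2 fold changes, p-values with adjusted p-values, and mean normalized counts, a signal not used for tests. The 5 lines that name no gene were left out, among them reads on no gene (8.89% to 17.5% of reads on genes, on no gene or ambiguous) and ambiguous reads (1.57% to 1.92%).

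The counts entered edgeR 4.0.16 (R 4.3.3) after filterByExpr and TMM scaling, with a robust quasi-likelihood fit of group means over the 3 groups of an age, or all 6 groups for tests between ages. P-values were adjusted over all genes tested and called under 0.05. Levels are CPM on 1 TMM scaling over all 49 libraries, with 0.5 CPM added before logs. In each fold change the first-named group is above the second when positive. Correlations used exact permutation for up to 9 libraries and 100000 resamples otherwise. In the older libraries they were computed within the sets on either side of the widest gap in Ttr and without subtracting group means, since the pooled value planned would have joined separate clusters, so the family held 27 relations in place of 18. The named genes were all members, the targeted genes, and for likeness the 10 closest genes at each age. Of the marker lists, the 6 wider choroid plexus genes and 2 genes of each other list with the highest mean CPM could be named. Intervals are 95%, from the SE by the normal approximation. Positions come from GENCODE M21 on GRCm38, the assembly of mm10, and RefSeq supplied promoters.

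The members, lists and tests were chosen with earlier results of these data known. Alternatives tried were DESeq2 1.42.0 size factors, library totals, no filter, the DESeq2 test, limma-voom (limma 3.58.1), a replicate block, fits of the 2 groups compared, libraries that go against their labels left out, and each library left out. Correlations on either side of the gap in Ttr, and correlations, spreads and marker list counts without WT-TKO replicate 7, were added after seeing the data. In simulated DKO versus KOWT counts (16005 genes) edgeR found 75 of 100 genes with a 1.5-fold change and 93 of 100 with a 2-fold change, with 2.33% of calls false. In simulated KOWTKO versus WT-TKO (15605 genes) it found 69 and 93, with 5.81% false. The changed genes were drawn from all genes, whose median SD in the older libraries was 0.18, against 0.90 (Sostdc1) to 4.04 (Ttr) for the members. These shares therefore do not apply to the members. The closest libraries of a group still differed beyond counting noise, with a chi-square of 3.35 per degree of freedom, so none was treated as a copy of another. This cannot show whether libraries of a group share a mouse. Each library was counted as a sample.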

Additional observations from a re-analysis of the deposited data

Results flagged for a closer look

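Of 60 groups examined (10 genes in 6 groups), 8 held a library whose distance from the nearest of the others, on the log2(CPM + 0.5) scale, was a large share of the group's whole range. Chance flags about 1 in 20 groups. The 10 genes were read in the same libraries, so the 60 groups are not independent and that rate cannot be set against the count of 8. All 8 were in WT-TKO, the newborn wild type group. In 7 of them the library was WT-TKO replicate 7, which was also the highest of its age in Ttr. It stood at 26.3 CPM for Clic6, 7.11 for Slc4a5, 6.43 for Cldn2, 11.9 for Folr1, 1.85 for Kcnj13, 27.6 for Aqp1 and 8.67 for Sostdc1. The remaining library was WT-TKO replicate 8, at 5.15 CPM for Kl. Ttr in WT-TKO replicate 7 and the older libraries high in Ttr did not stand apart by this measure.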

How the results depend on the processing

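The limits are the spread between libraries, which left intervals of several log2 units in the older groups, and low counts at birth. The counts of 0 members in the 3 older comparisons and in DKO minus KOWT against TKO minus KOWTKO stayed at 0 under every alternative run, each library left out included. In KOWTKO versus WT-TKO the count of 7 went from 5 to 8 over the alternatives and from 6 to 8 with a library left out. Clic6 lost its call with limma-voom (-1.15) and the replicate block (-1.24), and Aqp1 with DESeq2 (-0.72), limma-voom (-1.22), the block (-1.42) and without WT-TKO replicate 7 (-0.77). In TKO versus WT-TKO the count of 4 became 1 with limma-voom and 2 with only the 2 groups compared, and ranged from 1 to 6 with a library left out (1 without WT-TKO replicate 7, and 2 without TKO replicate 1, 4, 5, 6 or 9). In TKO versus KOWTKO the count of 0 became 1 with only the 2 groups compared. In KOWT minus WT-DKO against KOWTKO minus WT-TKO it became 1 with DESeq2 and ranged from 0 to 7 with a library left out (7 without WT-DKO replicate 9), and in WT-DKO versus WT-TKO the count of 3 ranged from 3 to 6 (6 without WT-TKO replicate 7). Kcnj13, which entered the fits between ages through the older libraries, is in several of these counts. With a library left out, 1552 to 2512 of all genes were called in KOWT minus WT-DKO against KOWTKO minus WT-TKO. In WT-DKO versus WT-TKO the number was 13465 to 13580, in either direction. The spread of Kcnj13 between newborn libraries became 0.97 with a pseudocount of 0.05 CPM. The cause of these changes was not tested.

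Replicate numbers did not clearly pair the libraries: correlations of same-numbered libraries ran from -0.34 to 0.48, and in no comparison were all over 0.1. At most 3 libraries per comparison were closest to their own number, 3 of 7 in DKO versus KOWT and 3 of 8 in KOWTKO versus WT-TKO. This check cannot exclude that some same-numbered libraries were paired. With the replicate block the counts were 1 in TKO versus WT-TKO, 1 in KOWT minus WT-DKO against KOWTKO minus WT-TKO, 5 in KOWTKO versus WT-TKO, 2 in WT-DKO versus WT-TKO and 0 in the others.

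Counts over all genes moved as well. DKO versus KOWT went from 3347 to 1082 without the libraries that go against their labels and to 2228 with only the 2 groups compared. TKO versus KOWTKO went from 800 to 483 with no filter, 1270 with DESeq2 and 471 without KOWTKO replicate 3, and ran from 330 to 1444 with a library left out (465 without TKO replicate 8, 484, 425, 330 and 1444 without KOWTKO replicates 1, 2, 5 and 7). KOWT versus WT-DKO went from 711 to 470 without KOWT replicate 3. The first difference between ages went from 1496 to 883 with no filter, 303 without the libraries that go against their labels and 985 without DKO replicate 6. Of 2043 uncalled values of members under an alternative, 151 had the opposite sign.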

Other observations

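Of the wider choroid plexus list, Enpp2, which encodes the secreted enzyme autotaxin, was the most abundant gene and tracked the members in the older libraries. It ran from 127.5 to 282.3 CPM in the 15 libraries low in Ttr and from 443.7 to 2862 CPM in the 9 high ones. Igfbp2, an insulin-like growth factor binding protein, overlapped between the sets, at 15.7 to 29.6 and 26.6 to 90.3 CPM, and stood at 83.0 to 131.8 CPM over all newborn libraries, and it was lower in WT-DKO than in WT-TKO (edgeR adjusted p = 5.94e-09). Slc22a8, an organic anion transporter, did not follow Ttr, at 16.0 to 37.2 and 18.3 to 38.4 CPM. Slc22a8 fell in TKO relative to WT-TKO by 0.64 ± 0.09 (log2, SE; edgeR with Benjamini-Hochberg adjustment, adjusted p = 2.57e-05) and in KOWTKO by 0.33 ± 0.09 (adjusted p = 0.0136).

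Of the 5 red blood cell genes, all fell in DKO relative to WT-DKO and 3 of 5 in KOWT relative to WT-DKO (edgeR), where 26.1% and 4.41% of all genes were called in either direction, with summed levels of 9.97 to 76.1 CPM in DKO, 23.3 to 110 in KOWT and 75.0 to 184 in WT-DKO. On the meningeal and fibroblast list, 6 of 14 genes rose in DKO relative to KOWT, where 20.8% of all genes were called in either direction, with no choroid plexus member called in that comparison.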
